A study of Homo sapiens with 6 samples.

Results

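Integrins are cell surface receptors made of an alpha and a beta chain. The 10 genes described here, ITGA1, ITGA2, ITGA3, ITGA5, ITGAV, ITGB1, ITGB3, ITGB5, ITGB6 and ITGB8, encode chains that work outside the hemidesmosome, the anchoring junction built on ITGA6 and ITGB4. They were taken by name, and every probe set with 1 of these symbols as its only annotated gene was used. That gave 31 of 54613 probe sets and 9 genes of the 19775 read on the arrays, with 3 probe sets for ITGA1, 2 for ITGA2, 1 each for ITGA3, ITGA5 and ITGAV, 7 each for ITGB1 and ITGB3, 4 for ITGB5 and 5 for ITGB8. ITGB6 was not analysed here, because its 4 probe sets are annotated to a further gene as well.

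The series compared MCF10A cells with C/EBPbeta-2 (3 arrays) and MCF10A cells alone, called control (3 arrays). C/EBPbeta-2 is 1 of the protein forms made from the transcription factor gene CEBPB, and MCF10A is a human breast epithelial line that does not form tumours. All 6 cultures were kept in medium with horse serum, insulin, hydrocortisone, epidermal growth factor and cholera toxin, and no further treatment is listed. The sources used here give neither the way C/EBPbeta-2 was introduced nor whether the cells were a clone or a pool. The labels call the arrays of a group biological replicates and do not name separate cultures, so p-values measure only the spread between these samples.

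In epithelium, integrins hold cells to the matrix and pass signals through talin, kindlin and focal adhesion kinase. ITGB1 is the common partner of the collagen receptor chains ITGA1 and ITGA2, the laminin receptor chain ITGA3 and the fibronectin receptor chain ITGA5. ITGAV pairs with ITGB1, ITGB3, ITGB5, ITGB6 or ITGB8, and with ITGB6 or ITGB8 it binds and activates latent TGF-beta.

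The 250 bases before a RefSeq transcript start of ITGA1 (chr5:52787666-52787915, plus strand), ITGA2 (chr5:52989102-52989351, plus strand) and ITGB8 (chr7:20330650-20330899, plus strand) are shown because these 3 members had the lowest p-values of the 9 measured. The windows of ITGA1 and ITGA2 end where the annotated gene begins, and that of ITGB8 lies inside the annotated gene (chr7:20329766-20415754). They come from RefSeq, build GRCh38.p14, and run 5′ to 3′, with capitals at the core TTGCNNAA of the C/EBP binding motif.
ITGA1: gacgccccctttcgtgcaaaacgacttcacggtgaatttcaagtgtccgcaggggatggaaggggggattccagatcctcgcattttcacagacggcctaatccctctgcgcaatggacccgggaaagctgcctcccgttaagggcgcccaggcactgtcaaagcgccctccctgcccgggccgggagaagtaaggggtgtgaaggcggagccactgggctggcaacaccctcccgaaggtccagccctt
ITGA2: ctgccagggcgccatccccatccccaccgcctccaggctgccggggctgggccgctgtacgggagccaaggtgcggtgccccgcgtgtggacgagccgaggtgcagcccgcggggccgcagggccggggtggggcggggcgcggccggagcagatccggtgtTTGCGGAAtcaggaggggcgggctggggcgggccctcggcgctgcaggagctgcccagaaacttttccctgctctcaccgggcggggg
ITGB8: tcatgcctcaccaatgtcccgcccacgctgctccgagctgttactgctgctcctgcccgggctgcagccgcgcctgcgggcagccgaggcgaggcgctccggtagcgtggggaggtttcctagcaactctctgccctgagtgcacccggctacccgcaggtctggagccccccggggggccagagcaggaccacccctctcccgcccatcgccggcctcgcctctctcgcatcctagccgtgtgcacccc
The core was searched on both strands. It matched in ITGA2 from position -88 relative to the start, and not in the windows shown for ITGA1 or ITGB8. RefSeq windows matched 8 of the 10 members by symbol, 12 windows in all, and 3 of them held the core, 1 each of ITGA2, ITGA5 and ITGB5. Of all 35114 windows of this length, 9.05% held it. The full palindrome TTGCGCAA, itself a case of the core, was in 0.131% of all windows and in 0 of these 12. A match is a description of the letters and not a measured binding site. In this annotation ITGA1 (chr5:52787916-52959209) and ITGA2 (chr5:52989352-53094779) are neighbours with 30142 bases between them, and the start of ITGA1 is also that of PELO, a ribosome rescue factor gene lying inside it.

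Values are log2 of the deposited intensity. For each gene the probe set of highest mean log2 intensity was used, and array medians were 4.46 to 4.56. The groups were compared with limma, fitted to all probe sets, as the difference of C/EBPbeta-2 from control, with Benjamini-Hochberg adjustment over all 19775 genes, and the threshold for a call was an adjusted p of 0.05.

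The arrays also differed in ways the groups do not explain. On principal component 1, with 44.1% of the variance, 2 arrays stood apart: C/EBPbeta-2 replicate 1 and control replicate 2. Another pair, C/EBPbeta-2 replicate 2 (3.73) and control replicate 1 (3.86), had a low mean signal of the poly-A spike-in RNA, against 6.75 to 7.65 on the other 4. These are called the low and the high spike level. Of 9 listed markers of basal mammary epithelium, 7 were measured and 7 lay above the array median on all 6 arrays, among them KRT5, KRT14 and EPCAM. Their summed intensity was 12720 to 15216 with C/EBPbeta-2 and 20888 to 29133 in control. Limma called 2 of the 7, where 0.263% of all genes were called. Both were lower: the basal keratin KRT14 (log2 difference -3.00, adjusted p = 0.0347) and the epithelial cadherin CDH1 (-2.14, adjusted p = 0.0282). With 1 array left out their adjusted p ran from 0.0213 to 0.219 for KRT14 and from 0.0617 to 0.167 for CDH1. KRT14, with a mean of 10.33 with C/EBPbeta-2 and 13.34 in control, made up most of the fall in the sum. The rest were not called: KRT5 differed by -0.13, KRT18 by 0.09, EPCAM by 0.03, EGFR by 0.05 and CDH3 by -0.96. The part of these marker differences in the integrin differences was not tested. CEBPB read 10.29, 10.50 and 11.38 on the C/EBPbeta-2 arrays, against 11.27, 11.38 and 11.37 on the control arrays. The position of its probes on the transcript was not used, so it does not check the labels.

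None of the 9 measured integrin genes was called by limma, where 0.263% of all genes were called. At an unadjusted p under 0.05 there were 3 of 9, ITGA1 and ITGA2 higher with C/EBPbeta-2 and ITGB8 lower, and 5.4% of all genes. By size, 2 of 9 differed by more than 1 on the log2 scale, ITGA1 and ITGB8, as did 2.57% of all genes. The median difference over the 9 was 0.08, against 0.01 over all genes, and the median size without sign was 0.57, against 0.14. These shares describe 9 genes and carry no test of the family.

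**Figure D1:**
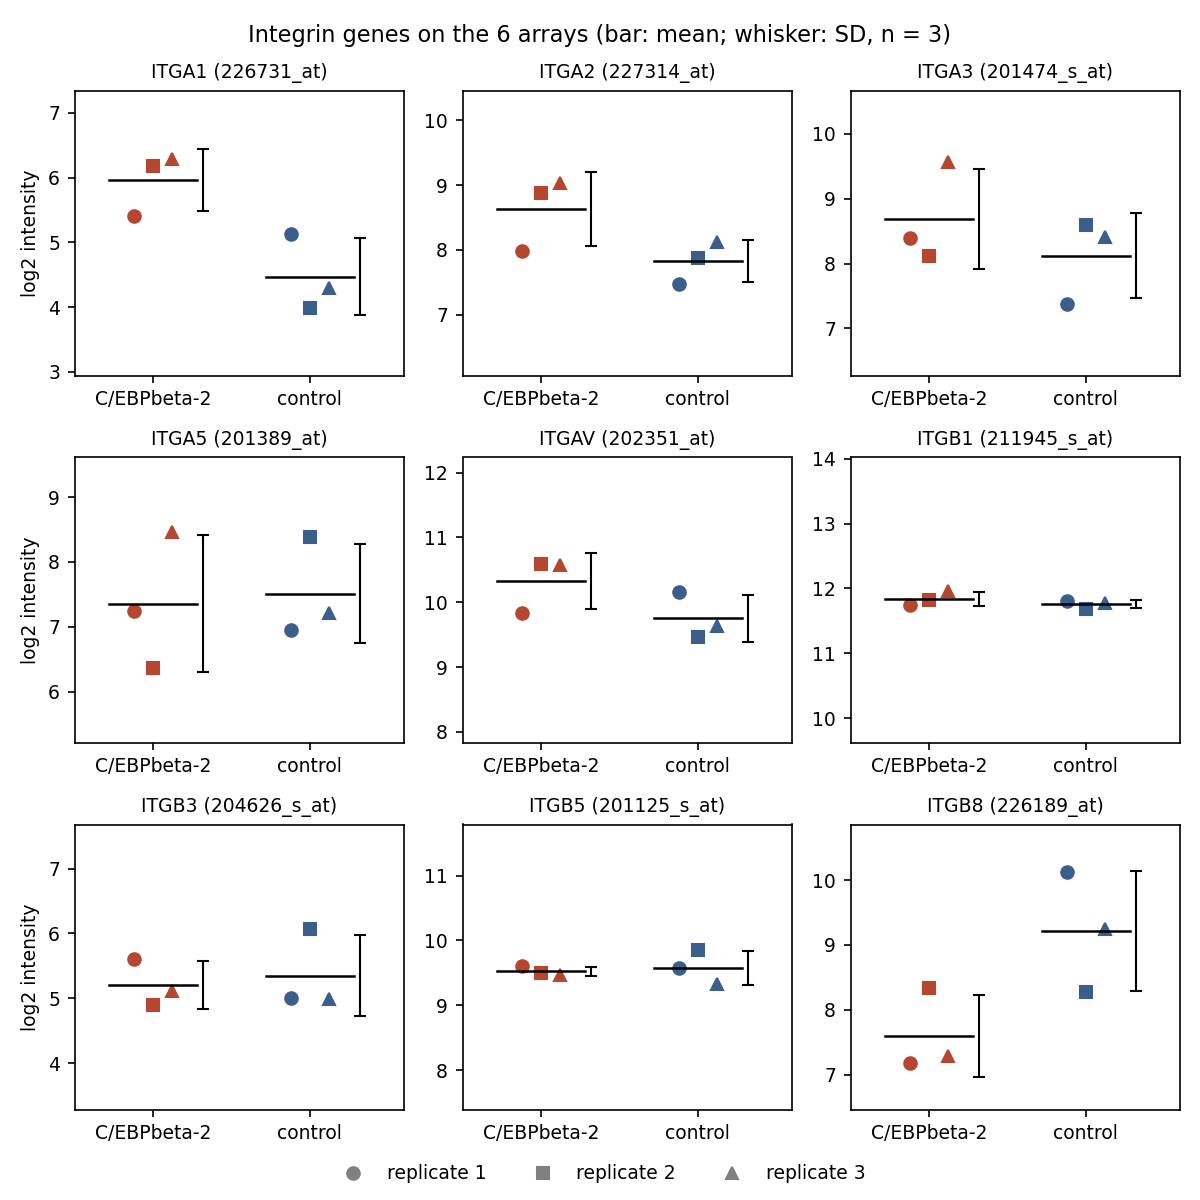
Log2 intensity (vertical axes, each spanning the same range) of the 9 measured integrin genes on the 3 C/EBPbeta-2 arrays (red, left) and the 3 control arrays (blue, right). Point shapes give the replicate, bars the mean and whiskers the SD. ITGA1 is the only panel whose groups do not overlap, and ITGB8 overlaps by 1 array on each side.

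The collagen receptor chains among the members, ITGA1 and ITGA2, both had a higher mean on the C/EBPbeta-2 arrays, and neither was called. Of the collagen receptor chains outside the members, ITGA10 differed by 0.00022 and ITGA11, which was dim, by 0.035. ITGA1 (226731_at), which with ITGB1 binds mainly collagen IV, read 5.41, 6.17 and 6.29 on the C/EBPbeta-2 arrays, against 5.13, 3.99 and 4.30 on the control arrays. All 3 C/EBPbeta-2 arrays lay above the highest control array, and control replicates 2 and 3 lay below their own array medians, so the control level is near the dim end and the size of the fold is uncertain. The mean was 5.96 ± 0.48 with C/EBPbeta-2 and 4.47 ± 0.59 in control (SD, n = 3 each). That is a 2.80-fold difference (95% interval 1.53 to 5.14; log2 difference 1.49, SE 0.36), with limma's adjusted p = 0.348 (0.0627 to 0.942 over the 17 alternative fits). It was the only 1 of the 9 genes whose groups did not overlap, where 8.63% of all genes did not. Within the low spike level it differed by 1.05, and within the high level by 1.71. Without C/EBPbeta-2 replicate 1 and control replicate 2, the arrays at the negative end of component 1, it differed by 1.52.

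The other ITGA1 probe sets were dim, meaning below the median probe set (mean log2 4.52). 214660_at averaged 3.58 with C/EBPbeta-2 and 3.17 in control, and 1560359_at averaged 2.89 with C/EBPbeta-2 and 2.75 in control. Their differences, 0.41 and 0.14, had the sign of the bright probe set and intervals that include 0. PELO (218472_s_at), looked at because it shares the annotated start of ITGA1, differed by 0.09 (95% interval -0.37 to 0.56).

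ITGA2, the chain of the main collagen I receptor of epithelium, was read by 2 bright probe sets. On 227314_at the values were 7.98, 8.88 and 9.04 with C/EBPbeta-2, against 7.48, 7.88 and 8.12 in control. On 205032_at they were 6.79, 7.04 and 7.89 with C/EBPbeta-2, against 6.45, 6.34 and 6.72 in control. The groups overlapped at 227314_at, where C/EBPbeta-2 replicate 1 lay below control replicate 3, and did not overlap at 205032_at. The log2 differences were 0.81 (SE 0.32, 95% interval 0.03 to 1.58) and 0.74 (SE 0.30, 95% interval 0.01 to 1.47). Limma's adjusted p for the gene was 0.878. Arrays of low spike level differed by 1.40 at 227314_at, and those of high level by 0.51.

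The laminin and fibronectin receptor chains varied more within the groups. ITGA3, the laminin-332 receptor chain of basal epithelium (201474_s_at), read 8.39, 8.11 and 9.57 with C/EBPbeta-2, against 7.37, 8.59 and 8.40 in control. The mean difference of 0.57 (95% interval -0.57 to 1.70) depended on the 2 extreme arrays. It was 0.13 without C/EBPbeta-2 replicate 3 and 0.19 without control replicate 1. ITGA5, the fibronectin receptor chain (201389_at), read 7.24, 6.36 and 8.46 with C/EBPbeta-2, against 6.95, 8.38 and 7.21 in control. Its groups covered nearly the same range, and its difference of -0.16 had the widest interval of the 9 genes, -1.60 to 1.28. A difference of up to 2-fold in either direction lies inside that interval.

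ITGAV, the chain shared by the vitronectin and TGF-beta binding integrins (202351_at), read 9.84, 10.60 and 10.57 with C/EBPbeta-2, against 10.16, 9.47 and 9.63 in control. C/EBPbeta-2 replicates 2 and 3 lay above every control array, and replicate 1 lay below control replicate 1. The log2 difference was 0.58 (SE 0.29, 95% interval -0.10 to 1.26). Taken over the alpha chains, 4 of 5 had a positive difference and the median was 0.58, where 51.9% of all genes had a positive difference.

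Of the beta chains, ITGB8 stood lower with C/EBPbeta-2. ITGB8, which pairs with ITGAV alone (226189_at), read 7.19, 8.33 and 7.29 on the C/EBPbeta-2 arrays, against 10.13, 8.28 and 9.24 on the control arrays. C/EBPbeta-2 replicates 1 and 3 lay below every control array, and C/EBPbeta-2 replicate 2 lay just above control replicate 2. The mean was 7.60 ± 0.63 with C/EBPbeta-2 and 9.22 ± 0.93 in control (SD, n = 3 each). The C/EBPbeta-2 level was 0.326 times that in control (95% interval 0.137 to 0.776; log2 difference -1.62, SE 0.52), with limma's adjusted p = 0.652. Within the low spike level it differed by -1.80, and within the high level by -1.52.

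Within each group ITGB8 was highest on the array where the ACTB control probe set at the 3′ end most exceeded that at the 5′ end. An excess of this kind can come with shorter RNA or cDNA. The ACTB excess was 0.18, 1.32 and 0.64 on C/EBPbeta-2 replicates 1 to 3 and 1.48, -0.04 and 0.44 on control replicates 1 to 3. It was largest on the arrays at the positive end of component 1 and smallest on those at the negative end. For GAPDH the same excess was 0.26, 0.22 and 0.32 with C/EBPbeta-2 and 0.12, 0.32 and 0.21 in control. Within each group it was lowest on the array with the largest ACTB excess. RNA length was not tested. With the ACTB excess as a covariate ITGB8 passed limma's threshold, with a log2 difference of -1.71 and an adjusted p of 0.0319. That fit called 106 of 19775 genes, against 52 without the covariate. Adjusted over all probe sets, it called 0 of the 31 integrin probe sets, with a lowest limma adjusted p of 0.0548. ITGB8 was the only 1 of the 9 genes called in any of the 17 alternative fits. Its adjusted p ran from 0.0319 to 1.00 over them. Without control replicate 1, its highest array, the difference was -1.16.

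The other 4 ITGB8 probe sets were dim and all lower with C/EBPbeta-2. 242982_x_at read 4.04, 3.77 and 3.78 with C/EBPbeta-2, against 4.40, 4.20 and 4.78 in control, a difference of -0.60 (SE 0.20). 205816_at differed by -0.37, and the groups did not overlap at either of them. 1563010_at differed by -0.34 and 211488_s_at by -0.09, with overlapping groups.

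ITGB1, the common partner chain, had the narrowest interval of the 9 genes. Its brightest probe set (211945_s_at) read 11.74, 11.82 and 11.96 with C/EBPbeta-2, against 11.81, 11.68 and 11.78 in control. The difference of 0.08 had an interval from -0.26 to 0.42, which is 0.834 to 1.34 times the control level. Bright probe sets 1553678_a_at and 1553530_a_at differed by -0.10 each, where C/EBPbeta-2 replicate 3 was the lowest array at both (9.72 and 9.29) while it was the highest at 211945_s_at. The other 4 ITGB1 probe sets were dim, with means of 2.55 to 3.31 and differences of 0.01 to 0.22.

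ITGB5 and ITGB3, which pair with ITGAV in vitronectin receptors, also had small differences. ITGB5 (201125_s_at) read 9.60, 9.50 and 9.47 with C/EBPbeta-2, against 9.57, 9.85 and 9.33 in control, a difference of -0.06 (95% interval -0.49 to 0.37). Its other probe sets differed by 0.02 (214020_x_at), 0.28 (201124_at) and 0.11 (214021_x_at, dim). ITGB3 (204626_s_at) read 5.61, 4.89 and 5.12 with C/EBPbeta-2, against 5.00, 6.07 and 4.99 in control, a difference of -0.15 (95% interval -0.99 to 0.70). Of its 7 probe sets 5 were dim, and the other bright one, 204628_s_at, differed by 0.38. The sign for ITGB3 and ITGB5 was therefore not the same at all their probe sets. Taken over the beta chains, 1 of 4 had a positive difference and the median was -0.10.

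**Figure D2:**
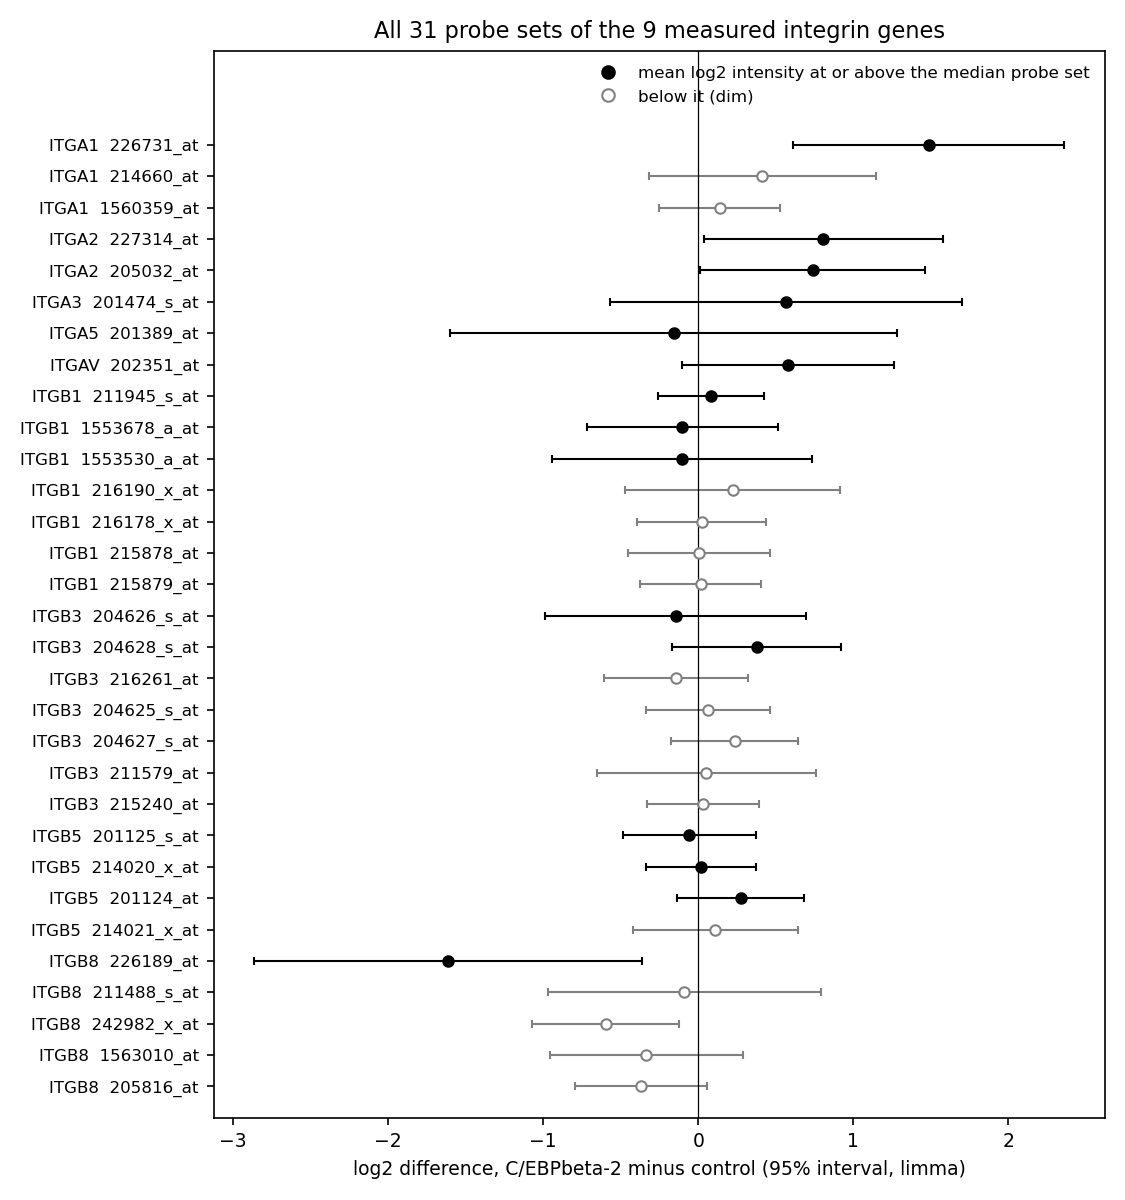
Log2 difference, C/EBPbeta-2 minus control, with limma's 95% interval (horizontal axis) for each of the 31 integrin probe sets (rows). Filled points are probe sets at or above the median probe set and open points are dim ones. All 3 ITGA1 and both ITGA2 probe sets lie right of 0 and all 5 ITGB8 probe sets lie left of it, while those of ITGB1, ITGB3 and ITGB5 lie on both sides.

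Over all 31 probe sets limma called 0, where 0.0659% of all probe sets were called, with 5 at an unadjusted p under 0.05, as had 3.98% of all probe sets. The groups did not overlap at 4 of 31, with 7.62% of all probe sets not overlapping. The 4 were 226731_at (ITGA1) and 205032_at (ITGA2), higher with C/EBPbeta-2, and 242982_x_at and 205816_at (ITGB8), lower with it.

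**Figure D3:**
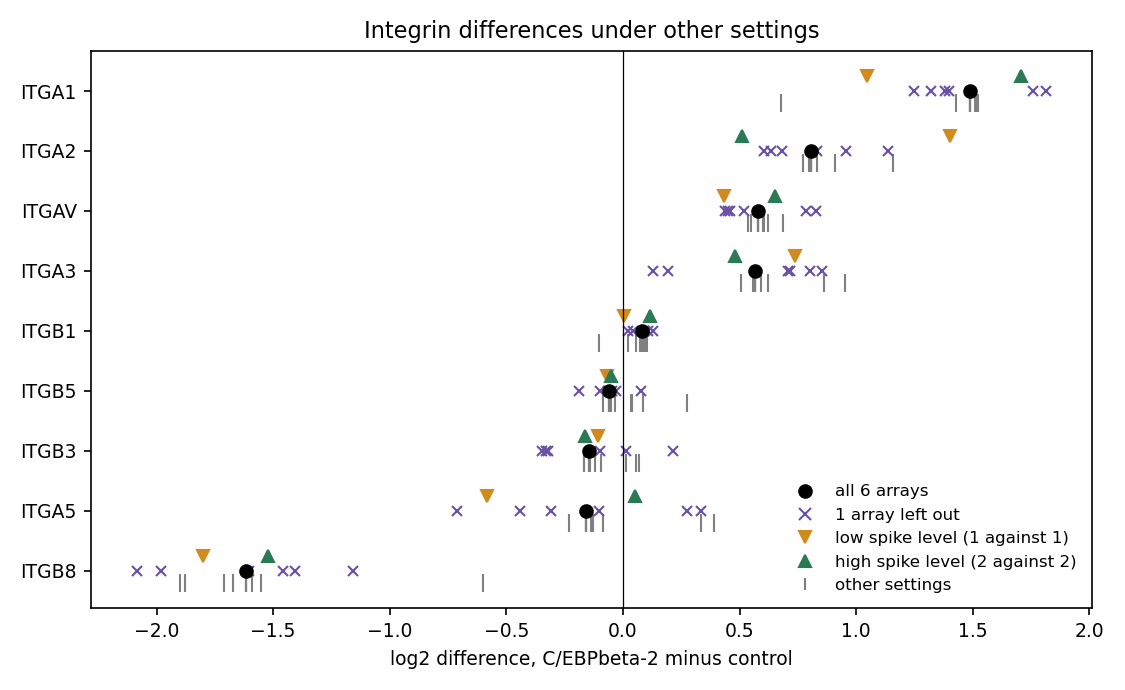
Log2 difference of each integrin gene (horizontal axis) with all 6 arrays (black), with 1 array left out (crosses), within the arrays of low (down triangles) or high (up triangles) spike level, and under the other settings (grey ticks). ITGA1, ITGA2, ITGA3 and ITGAV stay above 0 and ITGB8 below 0 in each setting shown, while ITGA5, ITGB1, ITGB3 and ITGB5 have values on both sides.

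The genes nearest to ITGB8 over the 6 arrays, by root mean square distance between centred log2 values, were PXYLP1, a phosphatase of proteoglycan linker sugars (0.11), CHN1, a GTPase-activating protein for Rac (0.12), and RETREG1, a receptor for autophagy of the endoplasmic reticulum (0.22). PXYLP1 read 4.68, 6.15 and 5.03 with C/EBPbeta-2, against 7.90, 6.03 and 6.97 in control. This is the ITGB8 pattern, with C/EBPbeta-2 replicate 2 just above control replicate 2. The genes nearest to ITGA1 were SH3RF1, a ubiquitin ligase scaffold (0.18), PPP2R2C, a regulatory subunit of protein phosphatase 2A (0.24), and SUSD5 (0.25). SH3RF1 read 6.86, 8.09 and 7.81 with C/EBPbeta-2, against 6.56, 5.78 and 6.06 in control.

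The partners of these integrins were read from lists. Limma called 0 of 14 other integrin subunits, and their median difference was 0.06. At an unadjusted p below 0.05 there was 1 (7.14% of the 14, against 5.4% of all genes). That 1 was ITGB2, the beta chain of leukocyte integrins (202803_s_at), with 5.64, 6.66 and 7.31 with C/EBPbeta-2, against 5.91, 4.72 and 5.07 in control, a difference of 1.31 (SE 0.49, adjusted p = 0.789). C/EBPbeta-2 replicates 2 and 3 lay above every control array, and replicate 1 lay below control replicate 1. The leukocyte chains ITGA4 (0.32) and ITGAM (0.29) followed in size, both dim. ITGA4 was 0.097 without C/EBPbeta-2 replicate 3, and ITGAM was 0.10 without C/EBPbeta-2 replicate 1. Of 7 leukocyte markers 6 were measured, and their summed intensity was 288 to 358 with C/EBPbeta-2 and 169 to 192 in control. Only CD14 and ITGB2 itself lay above the array median on all 6 arrays. CD14, a monocyte surface receptor, read 7.28, 6.85 and 7.09 with C/EBPbeta-2, against 6.05, 5.98 and 6.45 in control, a difference of 0.92 with groups that did not overlap (adjusted p = 0.26). PTPRC, the common leukocyte antigen, read 3.11 to 3.63 with C/EBPbeta-2 and 3.11 to 3.48 in control, below the array medians on all 6. The hemidesmosome chains differed by 0.42 (ITGA6) and -0.51 (ITGB4), with overlapping groups, and by 0.25 and 0.081 without C/EBPbeta-2 replicate 2.

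In the adhesion complex, the proteins that join integrins to actin and signalling, 33 of 36 listed genes were measured and limma called 0. At an unadjusted p under 0.05, 1 was higher and 2 were lower (9.09% of the 33, against 5.4% of all genes). The median difference was -0.10. KANK2, a talin-binding protein, read 7.55, 7.26 and 7.32 with C/EBPbeta-2, against 8.87, 8.18 and 7.76 in control, a difference of -0.90 (SE 0.29). DAB2, an endocytic adaptor that binds integrins, differed by 0.68 (SE 0.22). Control replicates 2 and 3 read 4.25 and 4.12 for DAB2, below their own array medians, so its control level is near the dim end. The groups did not overlap for either gene, 1 higher and 1 lower of 33, where 8.63% of all genes did not overlap. KANK2 differed by -1.61 within the low spike level and by -0.54 within the high level. KANK2 differed by -0.43 as the mean of its probe sets and by -0.36 without _x_at and _s_at probe sets. The other lower gene at that p was LPXN, a paxillin relative, with 5.18, 5.41 and 5.33 with C/EBPbeta-2, against 6.03, 6.26 and 5.41 in control, a difference of -0.59 with groups that just overlap. TGFB1I1, also a paxillin relative, was larger in size (-0.70) but had a higher p and overlapping groups. It differed by -0.23 without C/EBPbeta-2 replicate 2 and by -1.22 without C/EBPbeta-2 replicate 3.

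Of 22 matrix ligands and latent TGF-beta genes 21 were measured and limma called 0. With no adjustment 1 was higher and 1 lower at a p below 0.05 (9.52% of the 21, against 5.4% of all genes). The median difference was 0.04. COL4A1, a chain of collagen IV, read 9.11, 9.77 and 9.05 with C/EBPbeta-2, against 7.77, 8.94 and 6.98 in control, a difference of 1.41 (SE 0.50, adjusted p = 0.731). LTBP1, which tethers latent TGF-beta in the matrix, read 7.57, 6.87 and 8.28 with C/EBPbeta-2, against 9.03, 8.79 and 9.35 in control, a difference of -1.48 (SE 0.37, adjusted p = 0.355). The groups did not overlap for either, nor for NPNT (-0.66, dim). These were 1 higher and 2 lower genes of the 21, where 8.63% of all genes did not overlap. With 1 array left out COL4A1 ran from 0.95 to 1.93. LTBP1 differed by -2.17 within the low spike level and by -1.14 within the high level. FBN1, the microfibril protein fibrillin, differed by -1.47 with overlapping groups, and by -0.72 without control replicate 1. It was -0.89 as the mean of its probe sets and -0.33 without _x_at and _s_at probe sets, and ran from -1.96 to -0.33 over the 17 alternative fits. The summed intensity of 6 fibroblast markers was 284 to 474 with C/EBPbeta-2 and 665 to 3623 in control. DCN, with 8.16, 7.38 and 7.11 on the C/EBPbeta-2 arrays and 11.76, 9.74 and 8.98 on the control arrays, made up most of the control sums, while LUM read 2.61 to 2.92 on all 6 arrays. The other markers did not follow DCN. COL1A1, above the array median on all 6 arrays, differed by -0.13. The dim COL1A2, COL3A1 and PDGFRB differed by 0.39, -0.25 and 0.33. Limma called 0 of the 6 markers. The part of these markers in the differences of ITGB2, LTBP1 and FBN1 was not tested. In bulk RNA, fewer cells with a transcript and less of it per cell cannot be told apart.

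**Figure D4:**
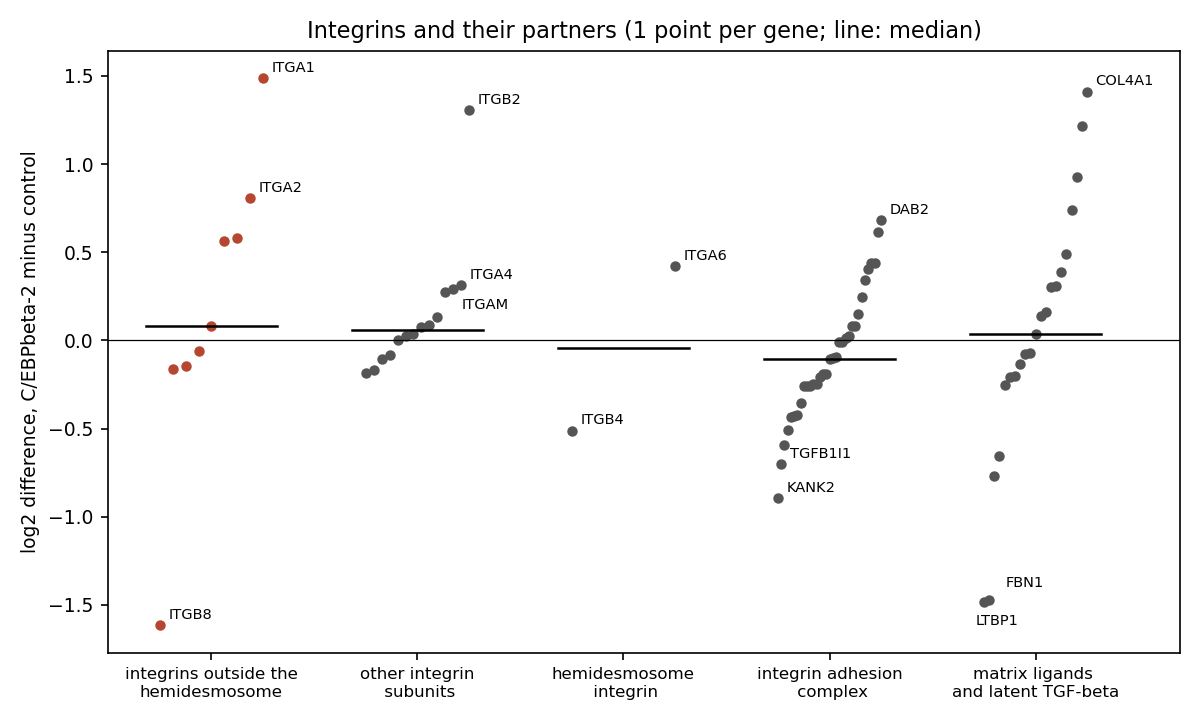
Log2 difference, C/EBPbeta-2 minus control (vertical axis), of each measured gene in the integrin group (red) and in 4 partner lists (grey). Lines are list medians, and the up to 3 genes with the largest size in each list are named. ITGA1 and COL4A1 lie near 1.5 and ITGB8, LTBP1 and FBN1 near -1.5, and limma called none of the genes shown.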

How the data were processed

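Total RNA of 6 samples was labelled by in vitro transcription from oligo-dT primed cDNA for Affymetrix arrays, per the labels' protocols. The authors deposited 1 intensity for each probe set on each array, made with RMA per the submitters' processing notes. These intensities are on a linear scale, and the sources used here do not say how they were brought to it. No detection calls were used, and the number of arrays limits the precision. Here the intensities were put on log2 with no pseudocount or further normalization. The 62 control probe sets were set aside. Genes were named from the platform annotation, and 41091 probe sets had 1 symbol, 1801 several and 11721 none. In R 4.3.3, limma 3.58.1 was fitted (lmFit, then eBayes) to all 54613 other probe sets with no covariate, two-sided, and p-values were adjusted over genes or over probe sets. The fit was tested on simulated data with noise drawn separately for each value. The differences between arrays described above were not simulated. Python 3.11.15 and matplotlib 3.10.9 made the summaries and plots.

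Named were all members, the 3 genes of largest size in each partner list with any called gene, and the 3 genes nearest to each of the 2 members of largest size. LUM, DCN, PTPRC, CD14, KRT14, CDH1, LPXN, NPNT, COL4A2 and PELO were named after their values were seen. ITGA10, ITGA11 and the other cell type markers were also named outside this rule. The members and lists were chosen with earlier results of these data known. The alternatives left out arrays, changed the normalization, filter, probe sets, variance model and threshold, or added a block or a covariate.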

Additional observations from a re-analysis of the deposited data

How the results depend on the processing

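Over 17 alternative fits, the differences of ITGA1 (0.68 to 1.81), ITGA2 (0.61 to 1.16), ITGA3 (0.13 to 0.95), ITGAV (0.44 to 0.83) and ITGB8 (-2.08 to -0.60) kept their sign. The values nearest 0 for ITGA1 and ITGB8 came from averaging all probe sets of a gene, most of them dim. The number of integrin genes called was 0 in all of these fits but 1, the ACTB covariate, which gave 1 gene among 106 called. It was 0 at an adjusted p under 0.1 and 3 at an unadjusted p under 0.05, a threshold chosen after seeing the data. Of integrin probe sets 0 were called in each fit, and 5 of 31 had an unadjusted p under 0.05, against 3.98% of all probe sets.

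Small differences changed sign. Without C/EBPbeta-2 replicate 2, ITGA5 was 0.34, ITGB3 0.012 and ITGB4 0.081. Without control replicate 2, ITGA5 was 0.27, ITGB3 0.21 and ITGB5 0.076. Over the 6 arrays left out in turn the lowest values were -0.71 (ITGA5), -0.35 (ITGB3), -0.19 (ITGB5) and -0.97 (ITGB4). Without both C/EBPbeta-2 replicate 1 and control replicate 2 they were 0.33 (ITGA5), 0.012 (ITGB3) and 0.036 (ITGB5), and with array weights 0.39 (ITGA5), 0.054 (ITGB3) and 0.038 (ITGB5). With the mean of probe sets ITGB3 was 0.068 and ITGB5 0.086. Without _x_at and _s_at probe sets ITGB1 was -0.10, ITGB5 0.28, ITGA4 -0.084 and ITGB4 0.22, and ITGA3 had no probe set left. The cause of these changes was not tested.

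Over all genes limma called 52. Leaving out 1 array gave 7 to 57 genes, leaving out both C/EBPbeta-2 replicate 1 and control replicate 2 gave 0, array weights 122, the ACTB covariate 106 and an adjusted p under 0.1 gave 92. With the replicate number as a block limma called 0 genes, 0 of them integrins. The deviations of same-numbered arrays from their group means had correlations of -0.45, -0.55 and 0.42. The labels give only a replicate number, and these values do not settle whether same-numbered arrays were paired.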
